A study of Mus musculus with 4 samples.

Results

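Septins are GTP-binding proteins that assemble side by side into rods and filaments beneath the plasma membrane, along actin bundles and at the cleavage furrow. Mammalian septins fall into the SEPT2, SEPT6, SEPT7 and SEPT3 homology groups, and a rod takes subunits from these groups in a fixed order, with SEPT7 as the only member of its group. In epithelial cells they are known for binding non-muscle myosin II, for supporting actin stress fibers and the cell cortex, and for the last steps of cell division.

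The transcripts of 9 septin genes, Sept2, Sept4, Sept5, Sept6, Sept7, Sept8, Sept9, Sept10 and Sept11, were examined in hair follicle stem cells (HF-SCs) of mice at postnatal day 44. The members were chosen by symbol and selected on 1 measured value, a mean normalized read count above 0, so that their being detected is no finding. They were 9 of the 17044 genes above 0 and of the 24421 genes listed. The table held 13 septin genes, of which Sept1 and Sept3 were above 0 but not on the member list, and Sept12 and Sept14 stood at 0. At the edge of the rule, Sept4 had a mean of 4.05, and the genes just outside had no read in any library. Where 3 reads are taken as the limit that a count of 0 allows, Sept12 and Sept14 could each have had a mean of up to 0.766. This limit and the intervals below cover counting error only.

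Bulk RNA-seq was made from 4 libraries, 2 labelled control and 2 labelled miR-205-induced. The induced mice carried a Krt14-rtTA driver, active in basal keratinocytes, and a pTRE2-miR-205 transgene, so that doxycycline chow raised the microRNA for 2 days before collection. All mice carried a K14-H2BGFP allele and were gender matched, and the labels give the strain as C57BL/6. The labels call the control untreated, whereas the extraction notes say that mice of both groups were fed doxycycline. Live back-skin cells that were H2BGFP-high, Sca1-negative, α6 integrin-high and CD34-high were sorted, and nothing in the labels says whether the replicates of a group were separate animals.

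The deposited table gives 1 mean over all 4 libraries for each gene and, apart from it, the authors' own comparison of the groups, which was not used here. The mean is printed with up to 15 digits, which was enough to work back to the whole number of reads of each library for all 9 septins. The mean does not tell which library is control and which is induced. The libraries are therefore numbered 1 to 4 by falling size factor (1.24, 1.18, 0.966 and 0.716), and are given as 4 single values with no group and no test between groups. The size factors, the scaling that makes libraries comparable, put the deepest library at 1.73 times the shallowest.

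Markers of HF-SCs and of other cells were both detected. All 14 genes of the HF-SC list were above 0, from Tcf7l1 with a mean of 590 to Krt5 with 146090. The list is not independent of the sort, since Cd34 and Itga6 encode proteins that the cells were sorted on. Krt14, also listed, is active in basal keratinocytes. Of the 39 markers of other cells, 37 were above 0, and Snap25 and Actc1 stood at 0. Detection alone therefore does not tell the cell types apart. The lowest and highest of each list were Adgre1 (62.3) and Cd74 (2744) for myeloid cells, Mlana (9.77) and Dct (498) for melanocytes, and Pdgfra (39.5) and Col1a1 (5186) for fibroblasts. They were Kdr (17.3) and Tek (51.3) for endothelial cells, Ivl (116) and Krt10 (7246) for suprabasal keratinocytes, and Pparg (22.0) and Scd1 (3085) for sebaceous cells. Among nerve and muscle markers the highest were Mbp (352) and Acta2 (53.3). Library 4 had the lowest summed level of all 8 of these lists, counted over the genes whose reads could be worked out. In such bulk samples fewer cells of a type and less RNA per cell cannot be told apart, and the part of other cells in the septin reads was not tested.

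Since the study raised miR-205, the septin 3′ untranslated regions (3′UTRs) were searched for the bases that pair with its seed. The mature microRNA, from RefSeq on GRCm38.p6, lies at chr1:193507503-193507524 on the minus strand, and its seed (bases 2 to 8) is in capitals. The 7 bases that pair with the seed, ATGAAGG, are in capitals in the septin windows, which read 5′ to 3′ along the transcript and are shown because they hold every 7-base match in the longest annotated 3′UTR of a member.
miR-205-5p: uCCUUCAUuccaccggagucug
Sept11: tgtatgtaggtATGAAGGgaattttaaaaa
Sept4, first match: atgttgaattcATGAAGGccctgcatcagc
Sept4, second match: tccaaagacagATGAAGGagactcactaac
Sept5: agctcatcaggATGAAGGatgaagagctaa

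These matches came from the GENCODE vM1 annotation of NCBIM37, and only the transcript strand was searched. In Sept11 the window lies at chr5:93603564-93603593 on the plus strand, in exon 10 of 10, and the match begins at base 3195 of a 3′UTR of 3604 bases. It is the only one of the 4 at which no other annotated transcript of its gene is coding. The Sept4 windows lie at chr11:87402484-87402513 in exon 8 and at chr11:87403849-87403878 in exon 13 of 13, both on the plus strand, and there 7 and 3 other Sept4 transcripts are annotated as coding. In Sept5 the 7 bases lie at chr16:18623016-18623022 on the minus strand, in exon 10 of 11, where the other Sept5 transcript is coding, and the printed window runs across the junction with exon 11.

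By this count 3 of the 9 septins had a 7-base match, and 1798 of the 15297 genes above 0 with a 3′UTR had one (11.8%). The regions were not of like length: 7 of the 9 septins had a longest 3′UTR above the median of these genes, 1092 bases. With the 6 bases that pair with bases 2 to 7, the count was 7 septins and 36.6% of genes, with Sept2, Sept6, Sept7 and Sept9 joining. Sept8 and Sept10 held neither match. In the 3′UTR of the transcript with the longest coding sequence, no septin held the 7 bases and 3 held the 6 bases, against 9.48% and 31.1% of genes. A match is a description of the letters, and whether miR-205 acts on any of these transcripts was not tested here. The paper captured mRNAs bound by miR-205 through direct ligation. Its printed list of bound actin cytoskeleton and cell adhesion genes names no septin, and that list covers those gene categories only.

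Levels of different genes were compared as normalized reads per kb of the longest annotated coding transcript. On this scale Sept7 ranked first, with 588 reads per kb, followed by Sept9 (462), Sept2 (385), Sept5 (194), Sept8 (151), Sept10 (98.5), Sept11 (53.8), Sept6 (17.4) and Sept4 (2.34). Thus the highest level was that of the one gene of the SEPT7 group, and the lowest was that of Sept4. Over the 15551 genes above 0 with a length, the median was 54.8 reads per kb and the upper quartile was 183. Sept7 stood above 92.2% of these genes, Sept11 near the middle at 49.7%, and Sept4 above only 18.1%.

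**Figure D1:**
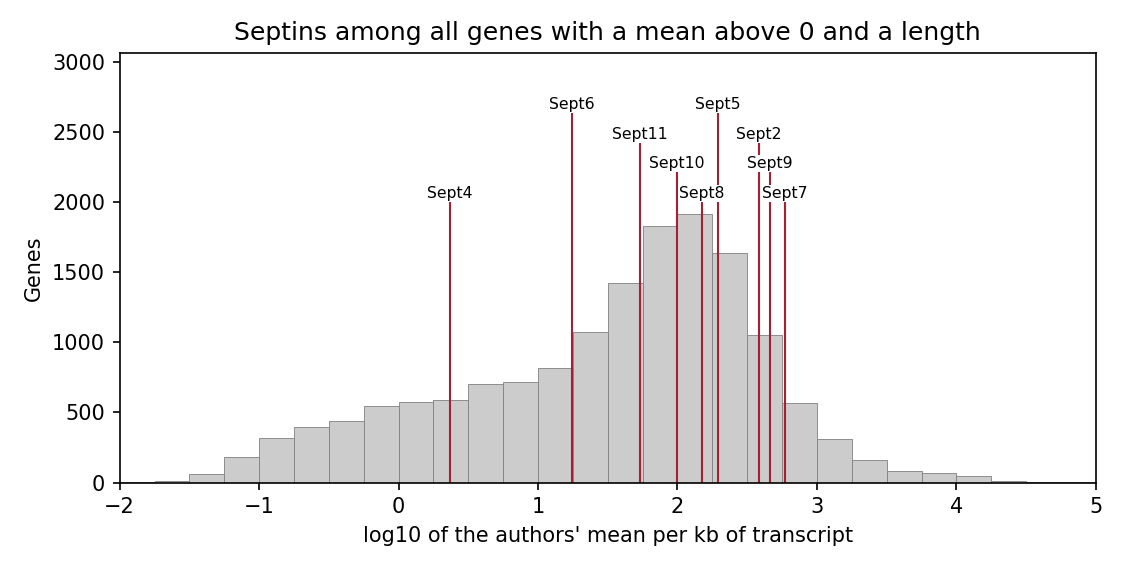
Histogram of the authors' mean per kb of transcript on a log10 axis for the 15551 genes above 0 with a length (grey bars, number of genes), with each septin marked by a red line. Sept7, Sept9 and Sept2 lie on the upper slope, 5 others lie from Sept6 at 17.4 to Sept5 at 194 reads per kb, and Sept4 lies in the lower tail.

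The order held in single libraries. For each of the 8 pairs of neighbours, the higher gene was above the lower in all 4 libraries. Only Sept5 and Sept8 had ranges over the libraries that overlapped, 162 to 224 against 127 to 167 reads per kb. The gaps depend on the length used. With the union of all exons as the length, Sept2 passed Sept9 and the other 7 kept their rank. With the coding length, or with no length, 2 of the 9 kept their rank, and Sept2 and Sept9, respectively, came first. Sept6 and Sept4 ranked eighth and ninth under all 4 choices.

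**Figure D2:**
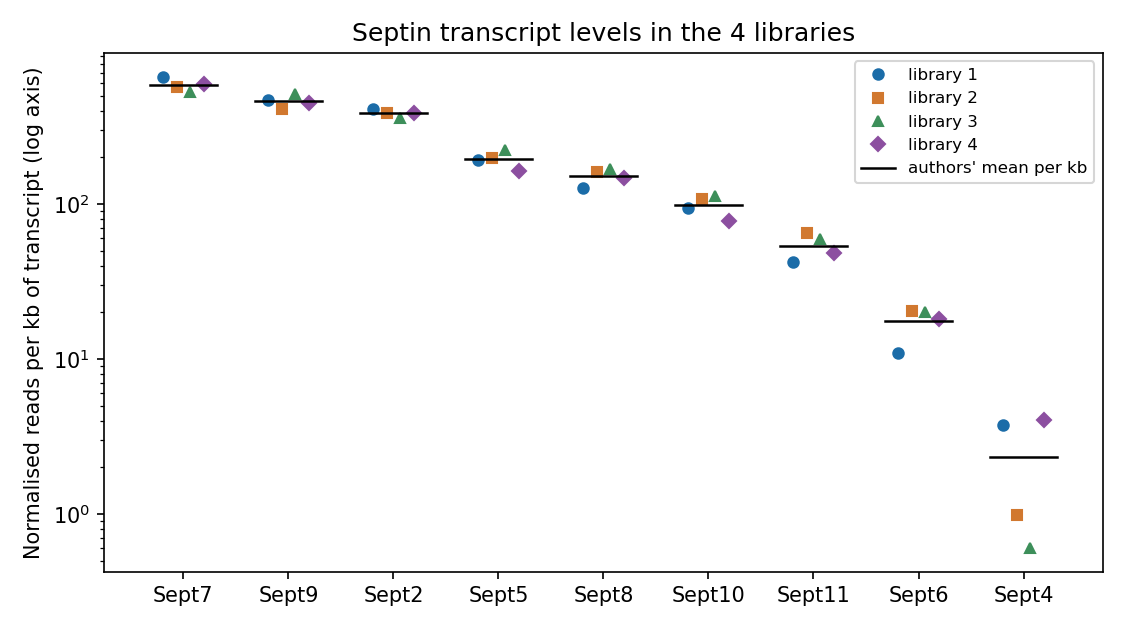
Normalized reads per kb of the longest coding transcript (log axis) for each septin in libraries 1 to 4 (symbols), with the authors' mean over the 4 libraries as a black line. The symbols of a gene stay close together except in Sept4, which spans 0.60 to 4.04 reads per kb, and in Sept6, where library 1 is low.

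SEPT7 occupies a place in the rod that no other septin group is known to fill. Sept7 (chr9:25056204-25116150, plus strand) had 1969, 1612, 1216 and 1017 reads in libraries 1 to 4. Scaled by the size factors these were 1592, 1367, 1258 and 1420, around the authors' mean of 1409. Library 1 was highest and library 3 lowest, and the highest was 1.27 times the lowest. Over the 8961 genes with a mean of 50 to 2000 whose reads could be worked out, the median of this ratio was 1.3, with quartiles of 1.19 and 1.49. Over the 5678 of them with a mean of 200 to 2000, the median was 1.25, with quartiles of 1.16 and 1.37. The Sept7 ratio was thus below the median of the wider range and above that of the narrower. A stretch of 869 aligned bases of the Sept7 transcript has a copy of 83.8% identity at chrX:132621538-132622392, where no gene is annotated, so reads from there could count either way.

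Of the SEPT2 group, whose proteins take an end position of the basic rod unit, Sept2 was the main member. Sept2 (chr1:95375541-95406837, plus strand), known for its place on stress fibers and in the contractile ring, had 1912, 1715, 1320 and 1041 reads. The scaled values were 1546, 1455, 1366 and 1453. They lay closest together of all the septins, with a ratio of 1.13, above that of only 11.9% of the genes with a mean of 50 to 2000. Many of these genes have fewer reads. For genes with a mean of 200 to 2000 the lower quartile was 1.16. Sept2 has near copies of its 3′UTR at chr13:107692124-107693403 (96.0% identity over 1288 aligned bases, inside Ipo11 on the other strand) and at chr1:100673384-100674622 (94.5% over 1247). How the counting treated reads of these copies is not given in the sources used here, which leaves the Sept2 level uncertain to that extent.

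Sept5 (chr16:18621904-18630004, minus strand), best known in neurons, where it lies on synaptic vesicles, had 511, 500, 462 and 248 reads in the stem cells. The scaled values were 413, 424, 478 and 346. Library 3 was 1.38 times library 4. Per kb, Sept5 stood at 0.421 to 0.619 times Sept2 over the 4 libraries. Gp1bb, which encodes a platelet receptor chain, overlaps Sept5 on the same strand and had a mean of 13, against 415 for Sept5.

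Sept4 (chr11:87382405-87404041, plus strand), known for a short form that promotes cell death and for the sperm annulus, was close to the limit of detection. It had 8, 2, 1 and 5 reads. The scaled values were 6.47, 1.70, 1.03 and 6.98, and libraries 1 and 4 stood above libraries 2 and 3. With so few reads the exact Poisson 95% intervals overlapped, at 0.0262 to 5.77 in library 3 and 2.27 to 16.3 in library 4. These wide intervals leave the level in a single library uncertain. Their overlap is no test of a difference between libraries, and no such test was made. Gm11492 overlaps Sept4 on the same strand. Sept1, the remaining gene of the SEPT2 group, had 42, 42, 19 and 23 reads, and its level per kb of 20.4 was above that of Sept4.

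The SEPT6 group held 4 members, whose proteins sit next to SEPT7 in the rod and can stand in for one another. Sept8 (chr11:53332759-53363067, plus strand) was the highest of them, with 714, 863, 737 and 484 reads. The scaled values were 577, 732, 763 and 676, lowest in library 1 and highest in library 3, with a ratio of 1.32. Per kb, Sept8 was followed by Sept10, Sept11 and Sept6, and these neighbours did not overlap over the libraries.

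Sept10 (chr10:58604398-58684595, minus strand) had 298, 324, 277 and 142 reads. Scaled, these were 241, 275, 287 and 198, with library 4 lowest and a ratio of 1.45. Sept11 (chr5:93522483-93605473, plus strand) had 263, 385, 289 and 172 reads, or 213, 327, 299 and 240 after scaling. Library 2 was 1.54 times library 1. Thus Sept10 and Sept11 had nearly the same mean, 250 and 270, whereas per kb Sept10 was 1.83 times Sept11, whose longest transcript has 5008 bases against 2539.

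Sept6 (chrX:34451321-34531789, minus strand), the gene that names the group, was its lowest member, with 63, 113, 91 and 61 reads. Scaled to 50.9, 95.9, 94.2 and 85.2, library 1 lay below the other libraries. The ratio of 1.88 was larger than that of 91.5% of genes with a mean of 50 to 2000, most of which have more reads. The exact Poisson intervals, for counting error alone, were 39.1 to 65.2 in library 1 and 79.0 to 115 in library 2. Sept14, a further gene of the group, had no read.

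Sept9, of the SEPT3 group, joins the longer form of the rod beside SEPT7 and is known for binding actin filaments and microtubules. Sept9 (chr11:117060975-117223639, plus strand) had the highest mean of the family, 1786, with 2234, 1884, 1926 and 1251 reads. Scaled, these were 1807, 1598, 1993 and 1746, with library 3 at 1.25 times library 2. The antisense transcript Gm16045 overlaps Sept9, as Gm15008 does Sept6 and a small nucleolar RNA gene does Sept10, and whether the counting used the strand is not given in the sources used here. Sept3, a brain-enriched gene of the same group, had only 12, 50, 25 and 11 reads. Its scaled level in library 2, 42.4, lay above those of the other libraries, 9.70 to 25.9.

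**Figure D3:**
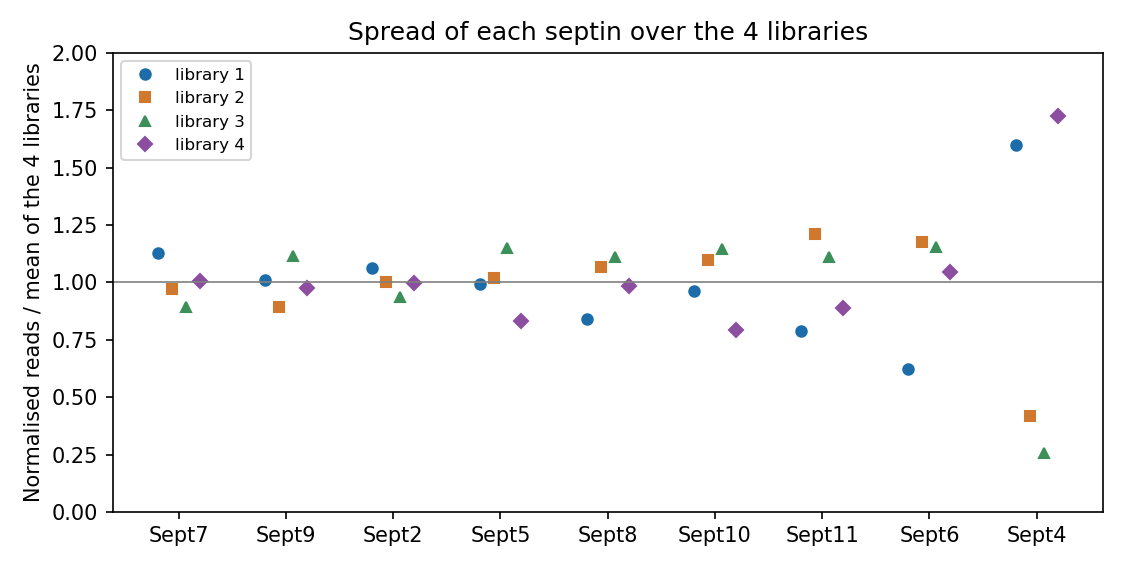
Scaled reads of each septin in libraries 1 to 4 (symbols), divided by the mean of the 4 libraries (grey line at 1). Sept2 lies between 0.939 and 1.06, Sept6 reaches down to 0.625 in library 1, and Sept4, with 1 to 8 reads a library, spreads from 0.256 to 1.73.

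For 6 of the 9 septins the highest library was under 1.5 times the lowest. The same held for 75.8% of the 8964 genes with a mean of 50 to 2000, and for 87.1% when the mean was 200 to 2000. The exceptions among the septins were Sept11, Sept6 and Sept4. For 8 of the 9, all except Sept4, the exact Poisson intervals of the highest and the lowest library lay apart, and they did so for 58.4% of the same genes and 66.3% of those with a mean of 200 to 2000. The ends were picked by their values and the intervals narrow as reads rise, so nothing is read from this count. No single library was at one end for every gene. Library 3 was highest for 4 septins and lowest for 3, library 1 highest for 2 and lowest for 3, library 2 highest for 2 and lowest for 1, and library 4 highest for 1 and lowest for 2. With 2 libraries of each group among them, these ratios hold both the spread between replicates and any difference between groups, which cannot be told apart from the mean.

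Most septin mRNA came from Sept7, Sept9 and Sept2. They made up 73.5% of the summed reads per kb of the 9 genes, and 70.6% to 76.5% in single libraries. By homology group, the SEPT7 group had 30.1%, the SEPT2 group 29.8%, the SEPT3 group 23.7% and the SEPT6 group 16.4%. With no length the order changed, to 29.5% for the SEPT2 group, 28.1% for the SEPT3 group, 22.2% for the SEPT7 group and 20.3% for the SEPT6 group. Per kb, the share of the SEPT2 group varied least, from 29.2% to 30.4% over the libraries. The share of the SEPT7 group ran from 26.4% to 33.0%, and that of the SEPT6 group from 13.7% to 18.4%. Summed over its 4 genes, the SEPT6 group was at 320 reads per kb, against 588 for Sept7. Within single libraries Sept7 was 1.45 to 1.62 times Sept2 per kb of the longest coding transcript. This direction depends on the length. Per kb of coding length Sept2 was above Sept7, at 1340 against 1073 reads. With no length it was also above, at 1455 against 1409.

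**Figure D4:**
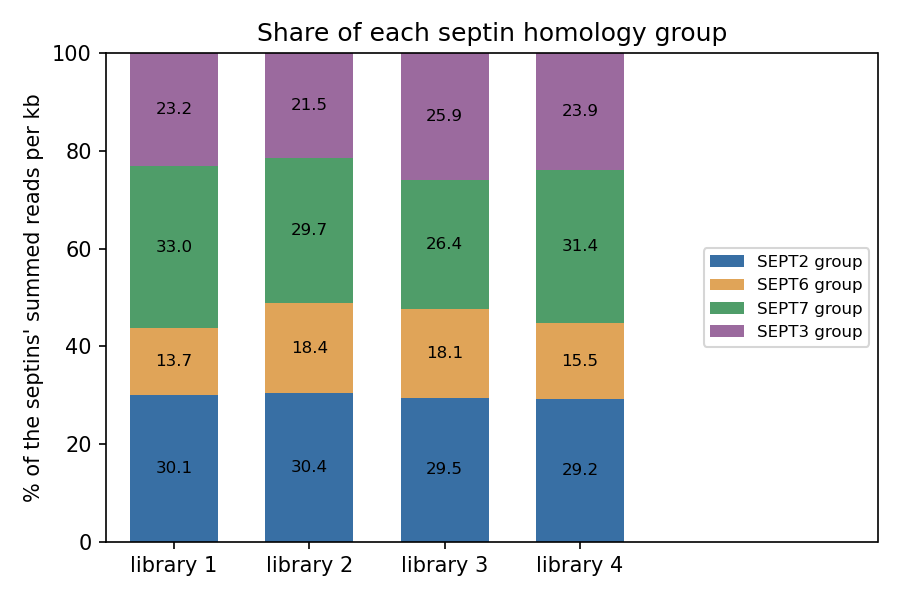
Share of each septin homology group in the summed reads per kb of the 9 septins, as stacked bars for libraries 1 to 4 (percent, printed in each segment). The SEPT2 segment stays between 29.2% and 30.4%, while the SEPT6 segment ranges from 13.7% in library 1 to 18.4% in library 2.

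The septins were set beside 24 genes whose products bind septins or work with them, in actomyosin contraction, Cdc42 signaling and cytokinesis. All 24 were above 0, and 19 had a mean above the median of all detected genes (117), as did 7 of the 9 septins. By mean, the highest was Myh9, the heavy chain of non-muscle myosin IIA, at 12383, and the lowest was Aurkb, a mitotic kinase, at 30.9. Per kb, Sept7 at 588 was below Myh9 at 1666, and Sept6 at 17.4 was just above Aurkb at 15.9. The 5 Cdc42 effector genes, whose proteins bind septin filaments, had a median of 197 reads per kb, close to Sept5.

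**Figure D5:**
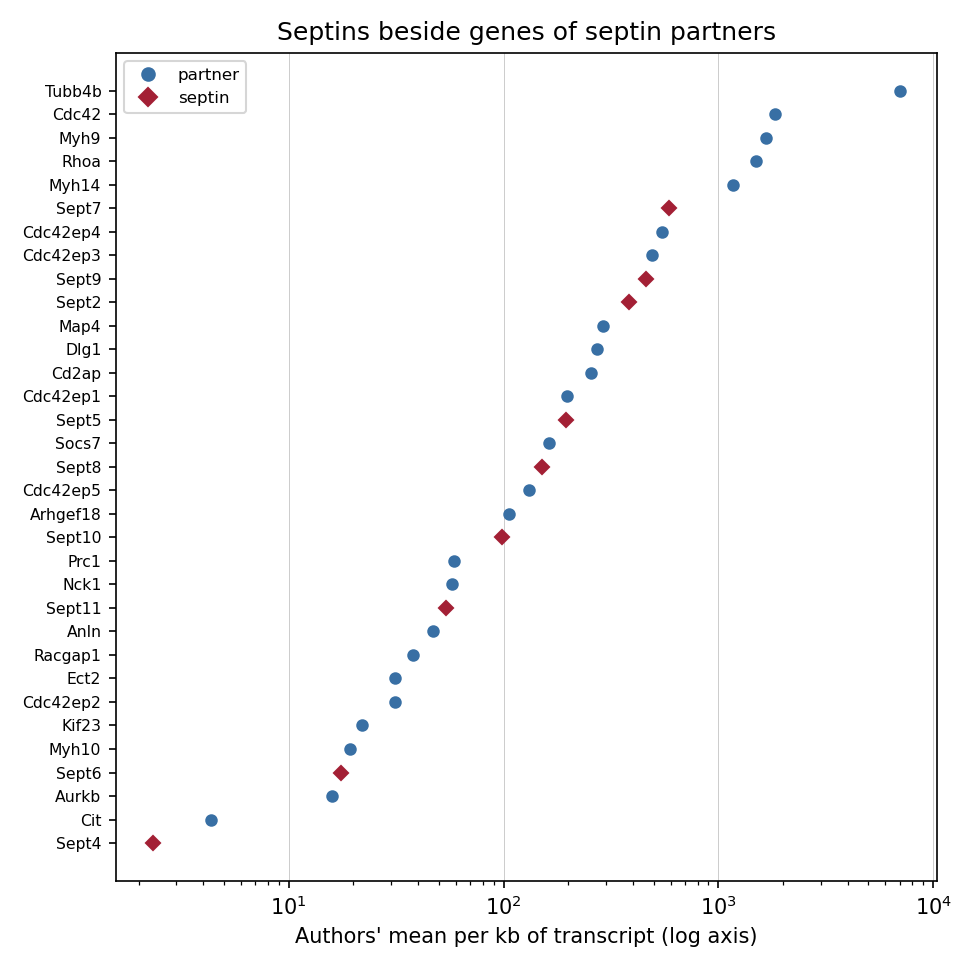
Authors' mean per kb of transcript (log axis) of the 9 septins (red diamonds) and the 24 partner genes (blue circles), ordered by level. Sept7 is exceeded by 5 partners, and Sept4 is the lowest of the 33 genes.

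A set of 7 partners that act in cytokinesis (Anln, Ect2, Cit, Racgap1, Prc1, Kif23 and Aurkb) was lower, with a median of 31.2 reads per kb. The set does not hold every partner with a part in cell division. Rhoa, Myh9 and Myh10 were left out of it, at 1501, 1666 and 19.2 reads per kb. The scaled reads of the 7 genes summed to 574, 1203, 704 and 819 in libraries 1 to 4, and all 7 were highest in library 2. Of the Cdc42 effector genes 0 of 5 were highest there, and of the other partners with reads worked out 1 of 7. The share of all genes that were highest in library 2 was not counted. The 7 genes were chosen for naming after their values were seen. Of the septins, Sept6 and Sept11 were also highest in library 2 and lowest in library 1, whereas Sept7 and Sept2 were highest in library 1. The summed myeloid markers were also highest in library 2, at 1.48 times their mean over the libraries against 0.714 in library 1, and the summed muscle markers were highest there at 1.5 times. Whether dividing or other cells have a part in the septin values was not tested.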

How the data were processed

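Bulk RNA-seq of sorted HF-SCs was deposited as 1 table of genes. According to the authors' methods and the submitters' processing notes, reads were aligned to the mouse genome (mm10 in the notes) with HISAT2 2.1.0, converted with SAMtools 1.3.1, counted per gene with HTSeq and analysed with DESeq2; for the last 2 no version is stated. The deposited signal is the mean normalized count over all 4 libraries, given by the authors without an error. The other 5 columns hold the authors' fold change, its error, test statistic, p-value and adjusted p-value, and were not used, so induced and control libraries were not compared.

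Size factors were derived from genes with 1 read in 1 library, and the whole reads of each library by searching all combinations that give the mean to its last digit (Python 3.11.15, numpy 2.4.6). For means of 1000 or more, each library was taken to lie within 3-fold of the mean, and means of 2000 or more were not attempted. For means of 50 to 1000, 99.5% of genes had a single answer, and for 1000 to 2000, 85.9%. The search was tested on simulated data. Total depth per library was not obtained; the means of the 17044 genes above 0 sum to 13085835.

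Lengths and 3′UTRs came from GENCODE vM1 (NCBIM37), which is not the authors' build; 91.2% of genes above 0 had a length. Near copies were sought with minimap2 2.31 (at least 500 aligned bases and 80% identity). Intervals are exact Poisson 95% intervals of reads, which are not independent molecules. All 9 members, the other septin genes, and the highest and lowest partner and marker of each list were to be named; the members of the cytokinesis set, taken from the partner list, were chosen for naming after their values were seen. The members and lists were chosen with earlier results of these data known. Other lengths, filters, tolerances, 3′UTRs and the leaving out of each library were tried.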

Additional observations from a re-analysis of the deposited data

How the results depend on the processing

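The 4 libraries have no group, so no call could gain or lose significance. The rank per kb depends on the length: 2 of the 9 septins kept their rank with the coding length, and 2 with no length. The count of 3 septins with a 7-base match (11.8% of genes) became 7 with 6 bases (36.6% of genes). In the shortest 3′UTR the 7-base count was 0, against 6.49% of genes. It was also 0 in the 3′UTR of the transcript with the longest coding sequence, against 9.48% of genes. That last region was chosen after seeing the data. The shorter regions leave the matches out. Leaving out each library in turn, for the ranks also added after seeing the data, kept all 9 ranks, and moved no mean by more than 1.32-fold, the largest move being that of Sept4 without library 4. The number of septins whose highest library was under 1.5 times the lowest was 6 to 8. With a tolerance 10 times wider, 6 of the 9 septins still had a single answer, while Sept2 had 5, Sept7 had 4 and Sept9 had 7, so the reads of these 3 genes rest on the last digits of the mean. The share of Sept7, Sept9 and Sept2 was 73.1% with no length and 73.6% over the septins with a mean over 50. Of the 9 septins, 6 were above the median of genes with a mean over 10 and 5 above that of genes with a mean over 50. No paired analysis was possible because the table holds no value for a labelled library.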

Other observations

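The libraries have no group here, and their values are given singly, in the order of libraries 1 to 4. The share of the SEPT6 group in the septins' reads per kb was 13.7%, 18.4%, 18.1% and 15.5%. Per kb, the ratio to Sept7 was 0.191, 0.281, 0.319 and 0.250 for Sept8, 0.143, 0.190, 0.215 and 0.132 for Sept10, 0.0640, 0.114, 0.114 and 0.0810 for Sept11, and 0.0164, 0.0360, 0.0384 and 0.0308 for Sept6. All 4 ratios were higher in libraries 2 and 3 than in libraries 1 and 4. The split was not particular to the SEPT6 group: the ratio of Sept5 to Sept2 was 0.473, 0.516, 0.619 and 0.421. The ratio of Sept9 to Sept7 was not split this way, at 0.703, 0.724, 0.982 and 0.762. How many of all genes split the libraries so was not counted, and nothing is read from the split. All these ratios are formed within 1 library and do not depend on its depth. The 4 ratios of the SEPT6 group share Sept7, which was itself lower in libraries 2 and 3. Some markers of other cells moved with the 4 ratios of the SEPT6 group, and others did not. Relative to the mean of the libraries, the summed myeloid markers (5 of 6 with reads worked out) were at 0.714, 1.48, 1.19 and 0.621. The summed suprabasal markers (2 of 4) were at 0.747, 1.02, 1.86 and 0.371. The summed sebaceous markers were also higher in libraries 2 and 3 than in libraries 1 and 4. By contrast, the summed melanocyte, fibroblast, endothelial and nerve markers were higher in library 1 than in library 2. The summed muscle markers were higher in library 1 than in library 3. The summed HF-SC markers (4 of 14 with reads worked out) were at 1.03, 0.941, 0.926 and 1.10. They were lower in libraries 2 and 3 than in libraries 1 and 4. The part of other cells in the septin ratios was not tested.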
